A study of Mus musculus with 6 samples.

Results

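The 9 genes described here are the FoxO transcription factors (Foxo1, Foxo3, Foxo4 and Foxo6) and a set of genes that these factors are known to act on in muscle: the ubiquitin ligases Fbxo32 (atrogin-1) and Trim63 (MuRF1), the sestrins Sesn1 and Sesn3, and the transcription factor Klf15. They were chosen by name, from what is known of the pathway, but with earlier results of these data known. All 9 were among the 31053 genes counted and the 11633 genes tested. They were compared between muscle stem cells (MuSCs) of WT and cD2KO mice, with 3 mice in each group and a library for each mouse. The WT libraries are c124, c129 and c130, from mice of genotype Pax7nGFP/+;Pax7+/+;Dio2Fl/Fl, and the cD2KO libraries are fl125, fl126 and fl128, from mice of genotype Pax7nGFP/+;Pax7-CreERT2/+;Dio2Fl/Fl. All mice received tamoxifen, all carried floxed alleles of Dio2 (the gene of type 2 deiodinase, D2, which turns the thyroid prohormone T4 into active T3), and according to the methods they were 3 to 4 months old. Cre was driven by Pax7, a transcription factor of MuSCs, and was carried by the cD2KO mice and not by the WT mice, so loss of Dio2 and presence of Cre cannot be told apart. The cells were quiescent MuSCs (qMuSCs) sorted from resting limb muscle for GFP driven by Pax7, and the study asked what loss of D2 does to them.

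FoxO factors are forkhead proteins that sit at the end of the insulin and IGF1 pathway. When the kinases AKT and SGK phosphorylate them, they are held in the cytoplasm by 14-3-3 proteins. When these kinases are inactive, FoxO factors enter the nucleus and switch on genes for cell cycle arrest, protection from oxidants, autophagy and protein breakdown. In MuSCs they are known to sustain quiescence, and in muscle fibers they are known to drive atrophy through the ubiquitin ligases encoded by Fbxo32 and Trim63. Much of this control lies in the location of the FoxO proteins, which RNA counts do not measure.

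Libraries held 2184073 to 3897787 counts, and 3 counts correspond to 0.773 to 1.37 CPM (a gene's counts relative to library size, scaled here by TMM factors). Values are given throughout in the order c124, c129, c130 for WT and fl125, fl126, fl128 for cD2KO. Dio2 had 21, 5 and 10 counts in the WT libraries and 15, 5 and 1 counts in the cD2KO libraries. The library labelled fl125 thus had the highest Dio2 level of all 6, 6.83 CPM against 1.86 to 5.41 CPM in WT. This goes against its label. However, these levels rest on few counts, 15 in this library and 21 in c124, so their order is uncertain. The counts do not tell where on Dio2 the reads lie, and therefore not whether they fall in the deleted part. Pax7 was present in every library (213 to 434 CPM for WT and 316 to 691 CPM for cD2KO), but so were defining genes of other cells: Acta1 of muscle fibers (535 to 2130 CPM) and Rgs5 of mural cells (844 to 2330 CPM). Pdgfra of fibroadipogenic cells (0.911 to 9.28 CPM) and Pecam1 of endothelial cells (1.72 to 18.2 CPM) were low. Fibroadipogenic markers as a list were not low: Dcn had 1000 to 3130 CPM, and the 8 markers summed to 2370 to 6310 CPM. Ptprc, a marker of immune cells, was highest in c129 (69.8 CPM) and lowest in the library labelled fl125 (4.10 CPM), and the summed level of 15 immune markers likewise ran from 7120 CPM in c129 to 216 CPM in the library labelled fl125. These 2 libraries stand apart in immune markers, and values without them are given beside results that move with them. They are not the only ones that differ: fl128 had the highest summed mural (16600 CPM) and myofiber markers (9260 CPM).

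Of the 9 genes, Foxo4 rose and Sesn1 fell in cD2KO at an unadjusted p under 0.05, the line the study draws. This is 22.2% of the 9 genes, where 12.0% of all genes tested passed the same line (5.34% higher and 6.62% lower). With total counts in place of TMM factors, 31.5% of the genes past the line were higher, against 44.6% here, and Foxo4 (0.376) no longer passed. The other 7 genes did not pass it. No member passed after adjustment for all genes tested (lowest adjusted p = 0.341, edgeR's quasi-likelihood test with Benjamini-Hochberg adjustment), and 0.00860% of all genes did. The levels of 3 members did not overlap between the groups (33.3%, against 18.1% of all genes): Foxo4 was above WT in all cD2KO libraries (as were 8.05% of all genes), and Sesn1 and Sesn3 were below WT in all of them (as were 1168 of the 11633 genes). Over all 9 members the median log2 fold change was 0.124, beside -0.02 over all genes tested. When c129 and the library labelled fl125 were left out, the count was also 2, but the genes were Foxo4 and Trim63, both higher. The plot of levels by library shows the values behind these counts.

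**Figure D1:**
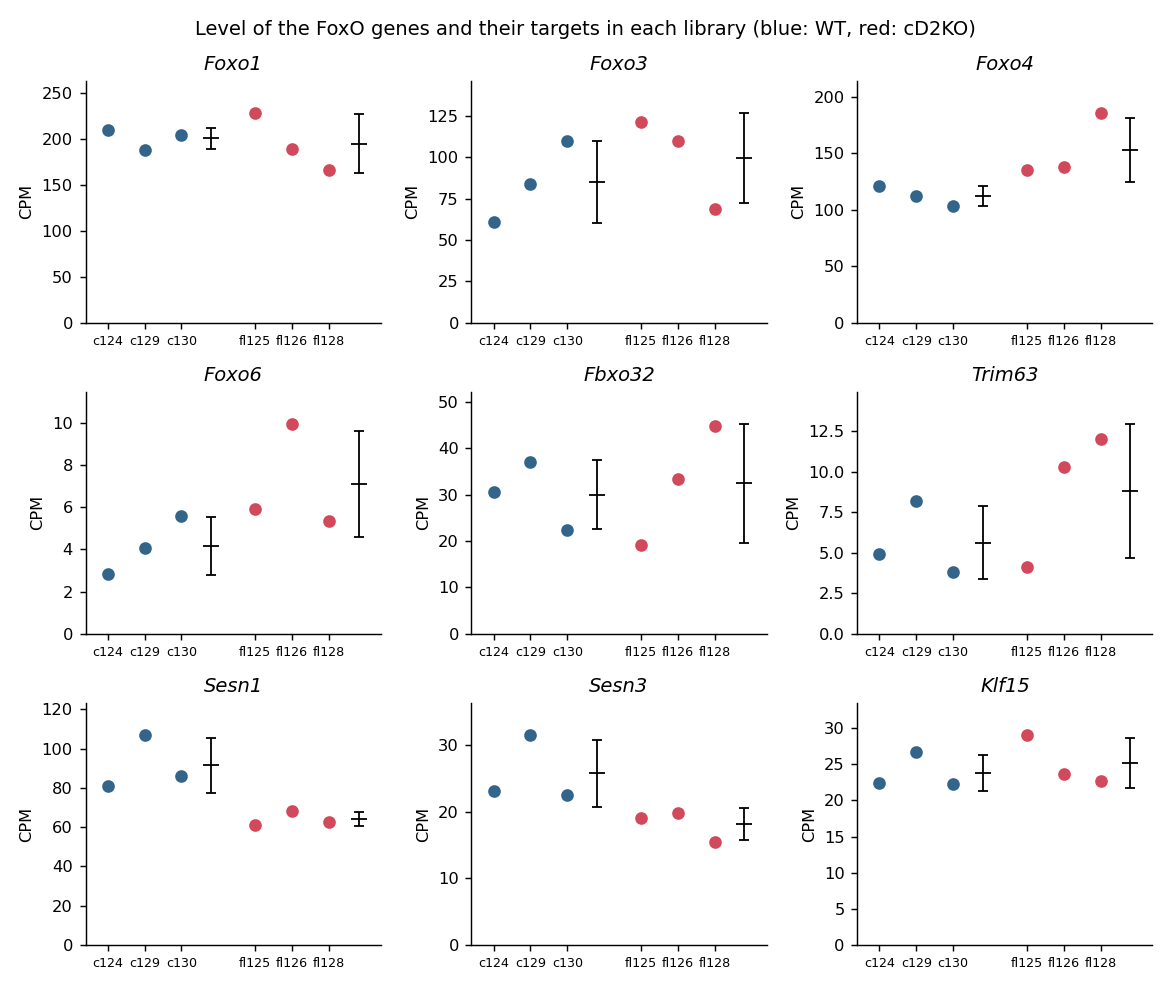
Level of each of the 9 genes in CPM (vertical axes, starting at 0) in each library (horizontal axes). Blue points are WT, red points are cD2KO, and the black bars beside each group are the mean and SD of 3 mice. Foxo4 lies between 103 and 121 CPM in WT and between 135 and 186 CPM in cD2KO, and Sesn1 between 80.9 and 107 CPM in WT and between 61.0 and 68.1 CPM in cD2KO.

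Foxo1 is known in muscle for its control of fuel use, where it favors the oxidation of fat over that of glucose. It lies on chromosome 3 (52268336 to 52353221, plus strand, GRCm38/mm10). Its level was 210, 188 and 205 CPM in the WT libraries and 229, 189 and 166 CPM in the cD2KO libraries. The WT libraries lay close together, and the cD2KO libraries spread to both sides of them, with the library labelled fl125 highest and fl128 lowest. The means were 201 ± 11.4 CPM for WT and 195 ± 32.0 CPM in cD2KO (SD, n = 3). Its log2 fold change was -0.045 (SE 0.194, 95% interval -0.461 to 0.371, adjusted p = 0.96). An antisense gene, Gm20402, shares 674 exonic bases with Foxo1, and since the use of strand is not given in the sources used here, reads of both cannot be told apart.

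Foxo3, which is known to keep MuSCs quiescent through Notch signaling, lies on chromosome 10 (42181841 to 42276755, minus strand). Its level was 61.0, 83.9 and 110 CPM in the WT libraries and 121, 110 and 68.8 CPM in the cD2KO libraries. It varied by nearly the same range within each group, and the groups overlapped. The means were 85.0 ± 24.5 CPM for WT and 99.7 ± 27.3 CPM in cD2KO (SD, n = 3). This gave a log2 fold change of 0.231 (SE 0.261, 95% interval -0.33 to 0.791, adjusted p = 0.793). This interval holds both a moderate fall and a rise, so these mice do not settle the direction of Foxo3.

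Foxo4, a FoxO factor known for repressing the smooth muscle program through its binding to myocardin, lies on chromosome X (101254528 to 101260873, plus strand). Its level was 121, 112 and 103 CPM in the WT libraries and 135, 138 and 186 CPM in the cD2KO libraries. All cD2KO libraries were above all WT libraries, but the library labelled fl125 and fl126 lay nearer to the WT range than to fl128. The means were 112 ± 8.95 CPM for WT and 153 ± 28.4 CPM in cD2KO (SD, n = 3). The level was 1.36-fold higher in cD2KO (95% interval 1.01 to 1.83). This is a log2 fold change of 0.446 (SE 0.200, adjusted p = 0.396), with an unadjusted p just under 0.05. It was 0.282 without fl128 (adjusted p = 0.743) and 0.567 without the library labelled fl125 (adjusted p = 0.167), and only in the latter fit did the unadjusted p stay under 0.05 when 1 mouse was left out. With a WT mouse left out it was 0.42 to 0.506, and without fl126 it was 0.514.

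Foxo6, known mainly from brain and liver, lies on chromosome 4 (120267079 to 120287349, minus strand). It had few counts: 11, 11 and 16 in the WT libraries and 13, 29 and 17 in the cD2KO libraries. In CPM these were 2.83, 4.08 and 5.57 for WT and 5.92, 9.97 and 5.37 for cD2KO. The highest value was that of fl126, and fl128 lay just below c130, so the groups overlapped. The means were 4.16 ± 1.37 CPM for WT and 7.09 ± 2.51 CPM in cD2KO (SD, n = 3). The log2 fold change of 0.777 (SE 0.576, adjusted p = 0.651) had a wide 95% interval, from -0.459 to 2.012.

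Since FoxO factors share targets, their counts were also set against each other within a library, where scaling cancels. The number of Foxo4 reads for each Foxo1 read was 0.579, 0.597 and 0.505 in the WT libraries and 0.588, 0.731 and 1.12 in the cD2KO libraries. It was highest in fl128 and fl126, while the library labelled fl125 lay within the WT range (two-sided exact permutation test, p = 0.2, where 0.1 is the smallest p that 3 mice against 3 allow). Foxo1 made up 53.1%, 48.4% and 48.3% of the FoxO counts in WT, and 46.7%, 42.3% and 38.9% in cD2KO. These shares were lower in every cD2KO library (exact permutation test, p = 0.1). They are shares of reads, not of molecules, because transcript lengths differ. The summed level of the 4 genes was 395, 388 and 424 CPM for WT and 490, 447 and 426 CPM for cD2KO, again without overlap but by a narrow margin in fl128 (exact permutation test, p = 0.1). None of these ratios was adjusted for the 9 that were computed.

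Fbxo32 encodes atrogin-1, the F-box protein that directs muscle proteins to a ubiquitin ligase complex, and lies on chromosome 15 (58175879 to 58214932, minus strand). Its level was 30.6, 37.1 and 22.3 CPM in the WT libraries and 19.1, 33.4 and 44.8 CPM in the cD2KO libraries. Both the lowest and the highest value came from cD2KO, and WT lay between them. The means were 30.0 ± 7.44 CPM for WT and 32.4 ± 12.9 CPM in cD2KO (SD, n = 3). Between the groups the log2 fold change was 0.124 (SE 0.326, 95% interval -0.577 to 0.824, adjusted p = 0.927). Its sign depended on single mice: it was -0.183 without fl128, -0.016 without c130 and 0.422 without the library labelled fl125. The antisense gene Gm15943 shares 186 exonic bases with Fbxo32.

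Trim63 encodes MuRF1, a RING ubiquitin ligase that marks myosin and other sarcomere proteins for breakdown, and lies on chromosome 4 (134315120 to 134329629, plus strand). It is the classic case of a gene with FoxO and glucocorticoid receptor sites side by side, and its promoter is shown because both motifs can be read in it. The window below is chr4:134314870-134315169 on the plus strand, 250 bases before to 50 bases after the start site, from RefSeq on GRCm38.p6. Capitals mark the glucocorticoid response palindrome GAACANNNTGTTC, at 208 to 196 bases before the start, and 1 base after it the FoxO motif TGTTTAC, at 194 to 188 bases before the start.
Trim63: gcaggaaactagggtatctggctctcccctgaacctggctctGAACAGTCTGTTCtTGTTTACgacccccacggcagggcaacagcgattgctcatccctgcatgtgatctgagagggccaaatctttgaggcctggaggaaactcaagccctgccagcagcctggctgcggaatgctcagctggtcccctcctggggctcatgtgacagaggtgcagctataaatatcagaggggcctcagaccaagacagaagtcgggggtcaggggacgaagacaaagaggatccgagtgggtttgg
Both motifs were searched on both strands, and they do not overlap in Trim63. Among 32851 RefSeq windows of the same 300 bases, 3.65% held TGTTTAC, 0.0578% held the palindrome, and 2 windows (0.00609%) held both. These matches are letters in a window, and no binding was measured.

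Trim63 had 19, 22 and 11 counts in the WT libraries and 9, 30 and 38 counts in the cD2KO libraries. In CPM these were 4.89, 8.17 and 3.83 for WT and 4.10, 10.3 and 12.0 for cD2KO. In fl126 and fl128 the level was above all WT libraries, and in the library labelled fl125 it was near the lowest WT value. The means were 5.63 ± 2.26 CPM for WT and 8.81 ± 4.16 CPM in cD2KO (SD, n = 3). Trim63 had a log2 fold change of 0.666 (SE 0.552, 95% interval -0.517 to 1.849, adjusted p = 0.701). Without the library labelled fl125 it was 1.031 (adjusted p = 0.364), and without both this library and c129 it was 1.374 (adjusted p = 0.269), which passed the unadjusted line. Trim63 and Fbxo32 followed similar profiles over the 6 libraries, and reads of Trim63 for each read of Fbxo32 were 0.16 to 0.22 in WT and 0.214 to 0.309 in cD2KO (exact permutation test, p = 0.2).

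Sesn1 encodes a sestrin, a stress protein that binds the GATOR2 complex, restrains mTORC1 and is induced by p53 as well as by FoxO factors. It lies on chromosome 10 (41809935 to 41908424, plus strand). RefSeq gives it more than 1 start, and the window of the first, chr10:41810324-41810623 on the plus strand, is shown because it held the FoxO motif TGTTTAC (capitals), at 23 to 29 bases after the start.
Sesn1: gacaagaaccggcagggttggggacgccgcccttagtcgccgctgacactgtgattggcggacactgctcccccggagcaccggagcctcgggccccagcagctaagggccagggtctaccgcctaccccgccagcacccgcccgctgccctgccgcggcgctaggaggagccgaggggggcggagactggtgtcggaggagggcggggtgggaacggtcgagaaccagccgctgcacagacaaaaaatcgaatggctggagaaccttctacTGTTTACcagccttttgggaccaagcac
The window of the other start of Sesn1 and those of Foxo1, Foxo3, Klf15 and Sesn3 held neither motif. A direct repeat for thyroid hormone receptors, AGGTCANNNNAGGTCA, was in 0.0152% of all windows and in none of the 7 windows found for 6 of the members. A window without a match says only that these letters are not in its 300 bases.

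The level of Sesn1 was 80.9, 107 and 86.0 CPM in the WT libraries and 61.0, 68.1 and 62.8 CPM in the cD2KO libraries. All cD2KO libraries were below all WT libraries and lay close together, while c129 was the highest of the WT libraries. The means were 91.4 ± 14.0 CPM for WT and 64.0 ± 3.67 CPM in cD2KO (SD, n = 3). The level in cD2KO was 0.702 times that in WT (95% interval 0.52 to 0.947). This is a log2 fold change of -0.511 (SE 0.202, adjusted p = 0.341), with an unadjusted p under 0.05. It was -0.357 without c129 (adjusted p = 0.734), -0.441 without the library labelled fl125, -0.498 without fl128 and -0.315 without both c129 and the library labelled fl125, and none of these passed the line. With c124, c130 or fl126 left out it still passed.

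Sesn3, a sestrin known as a FoxO target that restrains mTORC1, lies on chromosome 9 (14275067 to 14333101, plus strand). Its level was 23.2, 31.6 and 22.6 CPM in the WT libraries and 19.1, 19.9 and 15.5 CPM in the cD2KO libraries. As for Sesn1, every cD2KO library was below every WT library and c129 was highest. The means were 25.8 ± 5.01 CPM for WT and 18.2 ± 2.38 CPM in cD2KO (SD, n = 3). The log2 fold change was -0.503 (SE 0.298, 95% interval -1.141 to 0.136, adjusted p = 0.541). It was near that of Sesn1 but did not pass the line, was -0.502 without the library labelled fl125 and -0.312 without c129, and the gene had 42 to 90 counts per library.

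The sestrins had the most similar profiles of any pair of members. The root mean square difference of their mean-centered log2 CPM over the 6 libraries was 0.11. It was 0.152 for Foxo1 and Klf15 and 0.289 for Fbxo32 and Trim63. This measure is not scaled to the spread of each gene. Foxo1 and Klf15 were nearly flat, with a root mean square of 0.146 and 0.142 around their own means. Their small difference therefore shows no shared movement. For Fbxo32 and Trim63 the same spread was 0.411 and 0.588. Within a library, reads of Sesn3 for each read of Sesn1 were 0.287, 0.294 and 0.263 in WT and 0.313, 0.293 and 0.246 in cD2KO (exact permutation test, p = 0.9). Sesn2, the remaining sestrin, did not follow them: its level was 3.79 ± 0.683 CPM for WT and 5.89 ± 2.46 CPM in cD2KO (SD, n = 3), with an adjusted p of 0.731.

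Klf15 encodes a zinc finger factor that is induced by glucocorticoids, works with FoxO factors on Fbxo32 and Trim63, and drives breakdown of branched-chain amino acids. It lies on chromosome 6 (90462576 to 90475238, plus strand). Its level was 22.4, 26.7 and 22.3 CPM in the WT libraries and 29.1, 23.7 and 22.7 CPM in the cD2KO libraries. The groups overlapped, with the library labelled fl125 highest. The means were 23.8 ± 2.54 CPM for WT and 25.2 ± 3.45 CPM in cD2KO (SD, n = 3). Its log2 fold change was 0.080 (SE 0.278, 95% interval -0.517 to 0.677, adjusted p = 0.95).

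**Figure D2:**
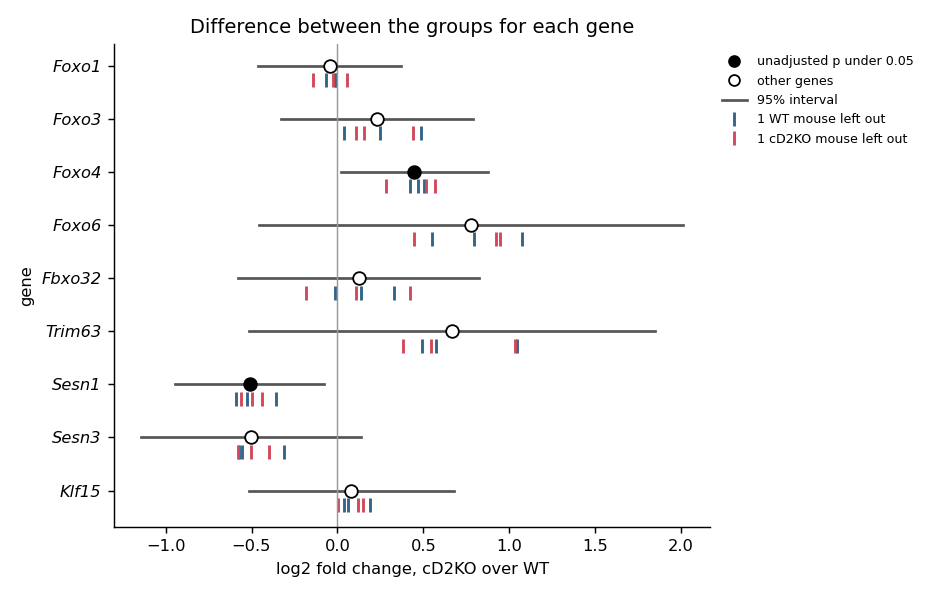
Log2 fold change of cD2KO over WT for each of the 9 genes (horizontal axis) with its 95% interval (gray line). Filled points have an unadjusted p under 0.05, and the ticks under each point are the same value with 1 WT mouse (blue) or 1 cD2KO mouse (red) left out. Every tick of Foxo4 lies above 0 and every tick of Sesn1 and Sesn3 below 0, while the ticks of Fbxo32 and Foxo1 fall on both sides.

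Some of the 9 genes moved together with markers of other cell types. The pairs below were chosen after their values were seen. In bulk RNA, fewer cells of a type and less RNA per cell cannot be told apart. Mural markers (11 genes, among them Acta2, Myh11, Cnn1 and Rgs5) summed to 9520, 5600 and 6990 CPM in c124, c129 and c130, and to 11400, 12100 and 16600 CPM in the cD2KO libraries. Foxo4 followed nearly the same order, with fl128 highest in both. Of the 11 mural genes, 5 passed the line as higher in cD2KO and none as lower. Without both c129 and the library labelled fl125, 5 were higher and 2 lower. Of all genes tested with all mice, 5.34% passed the line as higher and 6.62% as lower. Acta2 (up to 7940 CPM) and Myh11 (up to 6130 CPM) weigh most in the sum in fl128. Rgs5 did not share the rise: its log2 fold change was 0.003, and it was lowest in fl128 (844 CPM). The log2 fold change was above 0 for 8 of the 11 genes and below 0 for Pdgfrb, Kcnj8 and Abcc9. Immune markers (15 genes) summed to 3970, 7120 and 4790 CPM in WT and to 216, 2060 and 2320 CPM in the cD2KO libraries. Sesn1 was likewise highest in c129 and lowest in the library labelled fl125. Within cD2KO, however, Sesn1 was nearly level, at 61.0, 68.1 and 62.8 CPM, while the immune sum was far lower in the library labelled fl125. Of the 15 immune genes, 13 were lower in every cD2KO library than in any WT library, as were 1168 of the 11633 genes tested. With all mice 4 of the 15 passed the line as lower and none as higher, with 14 lower without the library labelled fl125, 12 without both this library and c129, and 1 to 5 with another mouse left out.

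Myofiber markers (15 genes) summed to 4560, 6060 and 2870 CPM in WT and to 5110, 5780 and 9260 CPM in the cD2KO libraries, and 2 of the 15 genes were higher and none lower. Without c129, 9 of the 15 were higher, without the library labelled fl125 8, and without both, where Trim63 passed the line, 11. Without c130 or fl128 it was 1. With all mice, 5.34% of all genes tested passed the line as higher and 6.62% as lower. Fbxo32 and Trim63, which fibers are known to express, had the same order within WT, with c129 highest and c130 lowest, and were also highest in fl128. The library labelled fl125 broke this order: it had 5110 CPM of myofiber markers and only 19.1 CPM of Fbxo32. The part of mural, immune and fiber RNA in these differences was not tested. Other markers moved as well. Endothelial markers had 6 of 11 genes lower (5 to 7 with a mouse left out). Among them, Esam (log2 fold change 0.325) was above WT in every cD2KO library, and Tek (0.04) and Eng (-0.062) hardly differed. Fibroadipogenic markers had 2 of 8 lower (0 without c129 and 4 without fl128), Schwann markers 1 of 5 lower (0 without c124, c130, fl126 or fl128), and MuSC markers 3 of 11 higher (Itga7, Cdh15 and Myf5; 1 higher and 1 lower without the library labelled fl125). Of 8 immediate early genes, which cell isolation is known to induce, 5 were lower in cD2KO with all mice, and their sum was highest in c129 (6330 CPM against 1800 to 3330 CPM in the other libraries). None was lower without c129 or without fl128, 1 without the library labelled fl125, and 7 without c124.

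**Figure D3:**
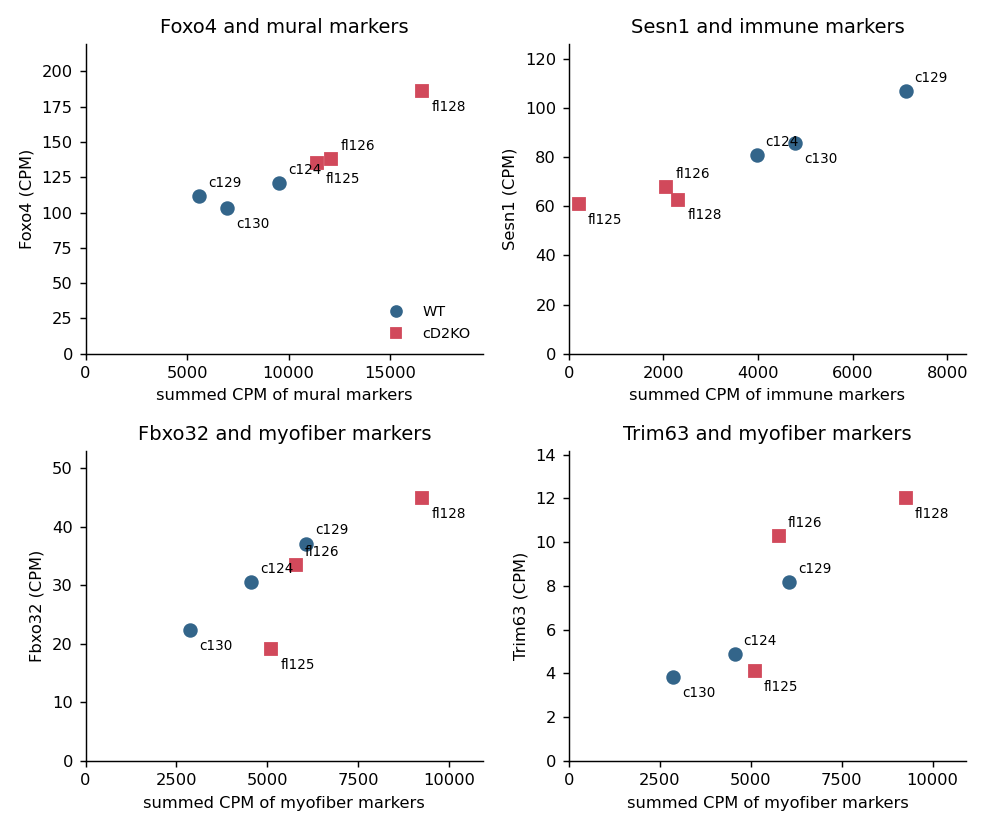
Level in CPM of Foxo4, Sesn1, Fbxo32 and Trim63 (vertical axes) against the summed CPM of mural, immune or myofiber markers (horizontal axes) in each library. Blue circles are WT and red squares are cD2KO, all axes start at 0, and pairs were chosen after their values were seen. Foxo4 is highest in fl128, where mural markers sum to 16600 CPM, and Sesn1 is highest in c129, where immune markers sum to 7120 CPM.

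For each member, the tested gene with the most similar profile over the 6 libraries was looked up. Saraf was nearest to Foxo1 (root mean square difference 0.0197 in log2 CPM), Tmem70 to Klf15 (0.02) and BC005537 to Sesn1 (0.0348). For Foxo4 it was Ackr3 (0.0624), for Foxo6 Ubxn8 (0.0625), for Sesn3 Ctbp2 (0.0653) and for Fbxo32 Vac14 (0.0676). For Foxo3 it was 1810043G02Rik (0.0703) and for Trim63 Slc52a2 (0.0968). With 11633 genes and 6 libraries such likeness is a description of profiles only.

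Around the 9 members, 136 genes were tested in 13 lists, among them a list of other forkhead genes taken by symbol and not by pathway. Of the 136 genes, 13 passed an unadjusted p under 0.05 (9.56%, against 12.0% of all genes tested). The kinase pathway that holds FoxO factors in the cytoplasm had 1 of 18 genes lower and none higher, with a median log2 fold change of 0.022. The gene was Sgk1, a kinase that phosphorylates FoxO3 and is itself induced by glucocorticoids. Its level was 88.6, 122 and 121 CPM in the WT libraries and 50.6, 76.7 and 73.9 CPM in the cD2KO libraries. Every cD2KO library was below every WT library. Sgk1 had a log2 fold change of -0.718 (SE 0.225, adjusted p = 0.194). Leaving out single mice gave -0.857 to -0.516, and all 6 of these fits passed the unadjusted line. Without both c129 and the library labelled fl125 it was -0.442 and just missed it. The insulin and IGF1 receptors, their substrates, the subunits of PI3 kinase and the AKT kinases did not pass.

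Among 22 proteins that modify or carry FoxO factors, 2 rose and 1 fell (median -0.064). Stub1, which encodes the ubiquitin ligase CHIP, had 131, 194 and 125 CPM for WT and 174, 237 and 267 CPM for cD2KO (log2 fold change 0.596, adjusted p = 0.331), and c129 lay above the library labelled fl125. It shares 1084 exonic bases with Jmjd8 on the opposite strand. Prmt1, a methyltransferase that keeps AKT from phosphorylating FoxO1, had 88.8, 69.1 and 96.8 CPM for WT and 165, 97.0 and 104 CPM for cD2KO (log2 fold change 0.516, adjusted p = 0.413). Its rise rested on the library labelled fl125, without which it was 0.277 and did not pass. Ywhah, a 14-3-3 protein, fell from 179 ± 4.97 CPM to 135 ± 10.8 CPM without overlap of the groups (log2 fold change -0.409, adjusted p = 0.396). With a mouse left out, Stub1 was at 0.458 to 0.851 and had p above 0.05 without c124, c130, fl126 or fl128. Without both c129 and the library labelled fl125 it was at 1.015 and passed. Prmt1 also had p above 0.05 without c124 or c129, and Ywhah (-0.478 to -0.339) had p under 0.05 only without fl128. Of 9 other settings, Prmt1 missed the line in 4 (voom, total counts, a minimum mean of 50 and non-robust estimation) and Ywhah in 3 (DESeq2's Wald test, DESeq2 size factors and no minimum).

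**Figure D4:**
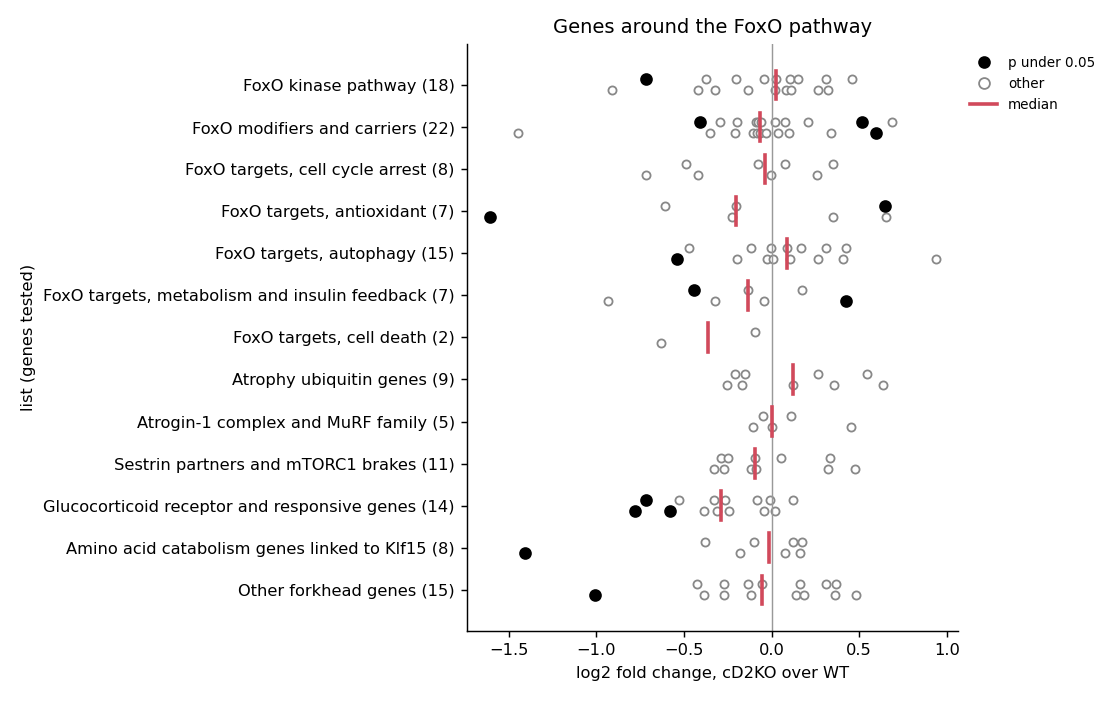
Log2 fold change of cD2KO over WT (horizontal axis) for each tested gene of the 13 lists (rows, with the number of genes tested). Filled points have an unadjusted p under 0.05, red bars are medians, and a gene in more than 1 list (such as Sgk1) appears in each. Medians run from -0.364, for a list with only 2 genes tested (cell death), over -0.29 for the glucocorticoid list to 0.12 for the ubiquitin genes of atrophy.

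Of 39 other known FoxO targets tested, 5 passed the line (12.8%), a share near the 12.0% of all genes. None of the 8 cell cycle arrest genes passed (median -0.04): Cdkn1b (p27) had 127 ± 14.2 CPM for WT and 152 ± 66.2 CPM in cD2KO, and Cdkn1a (p21) had 218 ± 19.4 CPM and 278 ± 35.7 CPM (SD, n = 3). Of 7 antioxidant genes 1 rose and 1 fell. Sod2, the superoxide dismutase of mitochondria, had 47.6, 47.9 and 46.6 CPM for WT and 75.1, 60.5 and 87.2 CPM for cD2KO (log2 fold change 0.648, SE 0.215, adjusted p = 0.219), and all 6 fits with a mouse left out kept p under 0.05. Selenop, which encodes a secreted selenium carrier, fell from 557, 1360 and 669 CPM to 150, 339 and 359 CPM (log2 fold change -1.609, SE 0.428, adjusted p = 0.177). Selenop was highest in c129 and lowest in the library labelled fl125, as the immune markers were, and was at -0.778 without these libraries, which still passed. Ccdc152 shares 439 exonic bases with it on the opposite strand.

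Of 15 autophagy genes, 1 was lower and none higher (median 0.088). It was Ctsl, a lysosomal protease known to rise in atrophy, at 139, 172 and 155 CPM for WT and 99.3, 119 and 102 CPM for cD2KO (log2 fold change -0.542, adjusted p = 0.259). Ctsl was highest in c129 and lowest in the library labelled fl125, as the immune markers were. It was at -0.438 without c129 and at -0.38 without both libraries, and passed in neither fit. Ctsl shares exons with the antisense gene Gm47123 and the pseudogene Gm49230. Without both c129 and the library labelled fl125, 4 of the 15 autophagy genes were higher and none lower, where 8.39% of all genes were higher and 6.37% lower. Tfeb, the master factor of lysosome genes, was at 16.5, 15.2 and 23.7 CPM for WT and 13.2, 34.7 and 56.8 CPM for cD2KO (adjusted p = 0.422). Of 7 metabolic genes tested, Pnpla2, the first lipase of fat breakdown, rose (log2 fold change 0.424, adjusted p = 0.414). Lpl, which encodes lipoprotein lipase, fell from 342, 374 and 401 CPM to 260, 270 and 291 CPM (log2 fold change -0.444, adjusted p = 0.375). With a mouse left out, Pnpla2 was at 0.36 to 0.545 and had p under 0.05 only without the library labelled fl125. Lpl was at -0.501 to -0.359 and had p under 0.05 only without c124 or fl128. Under other settings Pnpla2 missed the line with DESeq2's Wald test, total counts or a minimum mean of 50, and Lpl with no minimum. Neither of 2 cell death genes tested, Bcl2l11 and Bbc3, passed.

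Lists closer to protein breakdown and to the sestrins held no gene that passed. These were 9 further ubiquitin genes of atrophy (median 0.12), 5 tested genes of the atrogin-1 complex and the MuRF family (median 0.004), and 11 tested partners of the sestrins and brakes of mTORC1 (median -0.096). Of 8 tested genes of amino acid breakdown linked to Klf15, Gpt fell (log2 fold change -1.405, adjusted p = 0.403), from 7.73, 10.8 and 3.48 CPM to 2.28, 2.06 and 3.79 CPM. The groups overlapped for Gpt, which was at -1.738 to -1.013 with a mouse left out and had p under 0.05 only without c130 or fl128. Of 40 other forkhead genes, 15 were tested and only Foxd3, a factor of neural crest, passed, with 12.6 ± 2.39 CPM for WT and 6.16 ± 3.05 CPM for cD2KO (log2 fold change -1.01, adjusted p = 0.418). With a mouse left out, Foxd3 was at -1.421 to -0.685 and had p under 0.05 only without fl126. Of 8 other settings, Gpt passed in 6 and Foxd3 in 4.

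Glucocorticoids act with FoxO factors on Trim63 and induce Klf15, so their receptor and 14 genes in all were listed. Of these, 3 fell (21.4%, beside 6.62% of all genes) and none rose, and 12 of the 14 had a log2 fold change below 0 (median -0.29). Leaving out c124 or the library labelled fl125 gave 5 lower and none higher, and leaving out c129 gave 2 lower and 1 higher. The receptor gene Nr3c1 had 96.8, 107 and 93.3 CPM in the WT libraries and 77.4, 63.3 and 58.4 CPM in the cD2KO libraries. All cD2KO libraries were below all WT libraries. The log2 fold change of Nr3c1 was -0.581 (SE 0.200, adjusted p = 0.248), and p stayed under 0.05 in all 6 fits with a mouse left out and without both c129 and the library labelled fl125 (-0.61). The others were Sgk1 (above) and Dusp1, a phosphatase of MAP kinases, at 160, 357 and 254 CPM for WT and 148, 169 and 132 CPM for cD2KO (log2 fold change -0.779, adjusted p = 0.227). Dusp1 was highest in c129, as the immediate early genes were, and was at -0.443 without c129, where it did not pass. Fkbp5 and Tsc22d3, which are widely used as readouts of glucocorticoid action, had 58.2 ± 17.0 and 292 ± 49.8 CPM for WT and 49.2 ± 11.7 and 224 ± 31.6 CPM in cD2KO (SD, n = 3), with adjusted p of 0.793 and 0.494.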

How the data were processed

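RNA of sorted MuSCs was sequenced by a digital RNA-seq service. The authors deposited raw counts of reads per gene, 1 column per mouse, without normalization. Reads were aligned to mm10 with STAR, and the submitters' processing notes name bcl2fastq, STAR 2.6.0a and HTSeq 0.9.1. Which annotation was counted, whether strand was used and how duplicates were treated is not given in the sources used here. Gene symbols and coordinates were taken from GENCODE M21, which matched 30934 of the 31053 identifiers. Groups follow the genotype in the labels.

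A gene was kept where its DESeq2-normalized counts averaged more than 10, which left 11633. TMM scaling and testing used edgeR 4.0.16 (quasi-likelihood test, robust estimation) in R 4.3.3, in 1 fit of all 6 mice without covariates. Adjusted p are Benjamini-Hochberg values over the 11633 genes, and the line used is an unadjusted p under 0.05. The SE and 95% intervals come from the same fit and SDs are between mice. Exact permutation tests were two-sided. Depth was 2184073 to 3897787 counts, and floors of 3 counts cover counting error only. No pair of libraries agreed within sampling noise. The test was first tested on simulated data.

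The members and lists were chosen with earlier results of these data known. Genes named are the 9 members, Dio2, defining markers, the list genes past that line (at most 5 per list and direction), and the nearest profile of each member. Sesn2, Cdkn1a, Cdkn1b, Tfeb, Fkbp5, Tsc22d3, Bcl2l11 and Bbc3 are named in addition, with their values known. The alternatives tried were DESeq2 1.42.0 (Wald test), voom in limma 3.58.1, DESeq2 size factors, upper quartile factors or total counts in edgeR, a minimum mean of 50, none or edgeR's own filter, non-robust estimation, calls at an adjusted p under 0.05 and leaving out mice. Leaving out c129 and the library labelled fl125 together was added after the data had been seen. Promoter windows came from RefSeq tables, which matched 6 of the 9 members, with 7 windows. Foxo4, Foxo6 and Fbxo32 had no window there.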

Additional observations from a re-analysis of the deposited data

How the results depend on the processing

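The directions of Foxo4 and Sesn1 were kept under every alternative tried, but their p rested on single mice. The count of members with an unadjusted p under 0.05 was 1 with total counts in place of TMM factors or with a minimum mean of 50, 0 at an adjusted p under 0.05, 0 to 1 with a mouse left out and 2 without both c129 and the library labelled fl125. Foxo4 was at 0.376 with total counts and 0.411 with a minimum mean of 50, neither past the line, and at 0.282 to 0.567 with a mouse left out. Sesn1 was at -0.593 to -0.357 with a mouse left out and at -0.315 without both c129 and the library labelled fl125, where Trim63 was at 1.374 (0.38 to 1.044 with a mouse left out). Fbxo32 turned to -0.016 without c130 and -0.183 without fl128 (-0.183 to 0.422 with a mouse left out, 0.591 without both libraries), and Foxo1 to 0.058 without fl128 (-0.141 to 0.058, and -0.19 without both libraries). Neither gene had a p under 0.05 in any fit. The cause of these shifts was not tested. Over all genes, the number higher was 939 with no minimum, 976 without c129 and the library labelled fl125, 1 at an adjusted p under 0.05 and 406 to 934 with a mouse left out. With total counts 439 genes were higher and 953 lower, beside 621 and 770. The number lower was 505 with a minimum mean of 50, 0 at an adjusted p under 0.05 (edgeR; 770 at an unadjusted p) and 408 to 866 with a mouse left out. The 13 list genes became 6 without c129 and up to 19 without the library labelled fl125. With a minimum mean of 50, Foxo6 and Trim63 were not tested. At 2184073 to 3897787 counts, Foxo6 and Trim63 rest on 9 to 38 reads per library, which limits their precision. No paired analysis was possible because the labels give the mice no numbers shared between the groups.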
